A study of Mus musculus with 2 samples.

Results

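The genes described here are 10 components of fibroblast growth factor (FGF) signalling, chosen by name: the receptors Fgfr1, Fgfr2 and Fgfr3, the ligands Fgf2, Fgf7 and Fgf18, and the feedback inhibitors Spry1, Spry2, Spry4 and Dusp6. For each gene every probe set, a group of short oligonucleotides read as 1 signal, was included if its platform annotation gave that symbol alone. All 10 were on the arrays, with 20 of the 34958 probe sets that carried 1 symbol, out of 18194 genes in all. Expression was measured on Affymetrix mouse arrays in osteoblastic cells of the tibia and femur of C57Bl/6 embryos at embryonic day 18.5. The 2 groups were Ebf2-/- cells, which lack the transcription factor Ebf2, and Ebf2+/- cells, which keep 1 working copy. Cells of both groups carried the Ebf2-lacZ marker, were sorted for it after loading with FDG, a substrate that lacZ makes fluorescent, and were expanded in culture without passage. No group without the marker allele was analysed here. There was 1 array for each group, and the labels name 3 mice per genotype without saying whether their RNA was pooled, so no value has a replicate check and no p-value is given.

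FGFs bind receptor tyrosine kinases at the cell surface together with heparan sulphate, and the activated receptors switch on the Ras-ERK cascade. ERK activity induces the Sprouty proteins, which restrain signalling between receptor and Ras, and Dusp6, a phosphatase that inactivates ERK in the cytoplasm, so that both act as negative feedback. In the mouse skeleton Fgfr1 and Fgfr2 act in the osteoblast lineage, and Fgfr3, with Fgf18 as one of its ligands, restrains the proliferation of growth plate chondrocytes.

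The arrays were described by the authors' MAS5 signal, a linear intensity. A floor for background was set at 23.8 on the Ebf2-/- array and 17.8 on the Ebf2+/- array, and signals under it were raised to it before the log2 ratio of Ebf2-/- over Ebf2+/- was taken. Where 1 of the signals lay under its floor, the fold taken from that floor is given as "at least" that size. Such a bound changes with the floor and the scaling chosen. Among all genes 11785 were measured, meaning above the floor on at least 1 array, and 11176 of them had a ratio. The Ebf2 transcript was close to the floor on both arrays (20.6 on the Ebf2-/- and 24.9 on the Ebf2+/- array for its brightest probe set), so it gave no check of the labels. The 3' over 5' signal ratio of beta-actin, a sign of RNA integrity, was 2.79 on the Ebf2-/- and 1.97 on the Ebf2+/- array. Probe sets for the same gene, each above the floor on both arrays, scattered by 0.44 in log2 ratio (pooled SD, 4119 genes). This describes disagreement between probe sets within the arrays, with any differences between the transcripts they match. It leaves out variation between animals. On a list of 12 osteoblast markers 8 had a probe set and 5 were measured, of which 2 passed 2-fold upwards and 0 downwards (median log2 ratio 0.80), with a summed signal of 45486 on the Ebf2-/- and 26253 on the Ebf2+/- array. The matrix genes Sparc (17570.4 on the Ebf2-/- and 12049 on the Ebf2+/- array), Col1a2 (15008 on the Ebf2-/- and 8597 on the Ebf2+/- array) and Col1a1 (12784 on the Ebf2-/- and 5478 on the Ebf2+/- array) were bright, and the probe sets of Col1a1 ran from -0.49 to 1.22 in log2 ratio. Alpl, the alkaline phosphatase of bone, was 2.04-fold higher in Ebf2-/- cells, and the osteoblast transcription factor Sp7 was 1.57-fold lower. Both were dim. Alpl read 51.8 on the Ebf2-/- and 25.4 on the Ebf2+/- array, the latter not far above its floor of 17.8, and Sp7 read 53.3 and 83.7. The bone matrix genes Ibsp and Dmp1 and the osteocyte gene Phex were under the floor on both arrays.

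Spry1 had the highest ratio of the members and Fgfr3 the lowest. In Ebf2-/- cells Spry1 was 4.84-fold higher, Spry4 at least 2.81-fold higher and Fgf18 at least 2.20-fold higher, while Fgfr3 was 3.96-fold lower than in Ebf2+/- cells. Spry2, Fgf7, Fgfr1, Fgfr2 and Dusp6 differed by less than 2-fold when the brightest probe set stood for the gene, and Fgf2 was under the floor on both arrays. A difference of 2-fold or more was seen upwards in 3 and downwards in 1 of the 9 measured members, against 6.30% and 3.46% of all measured genes. Of these, Spry4 and Fgf18 counted as measured only through the Ebf2-/- array, where their signal was higher. The median log2 ratio was 0.34 over the 9 measured members and -0.01 over all measured genes with a ratio. After scaling to the spike-in transcripts, which put the median log2 ratio of all measured genes at -0.17, 528 genes were higher and 625 lower by 2-fold, against 742 and 408 as deposited. Under that scaling Spry1, Spry4 and Fgfr3 kept their side of 2-fold, Fgf18 was under it and Fgfr2 passed it on the lower side.

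**Figure D1:**
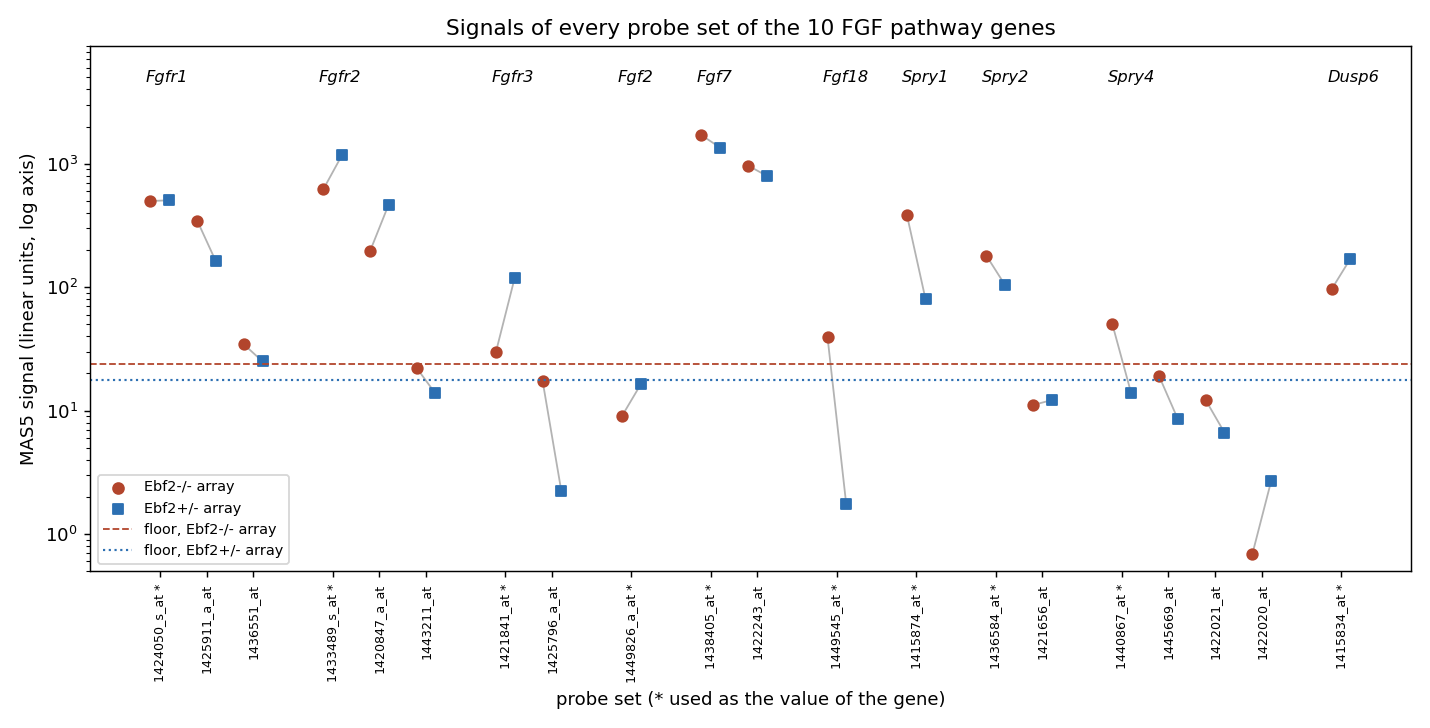
MAS5 signal on a log axis for each of the 20 probe sets of the 10 genes, with the Ebf2-/- array as red circles and the Ebf2+/- array as blue squares. The dashed and dotted lines are the floors of 23.8 (Ebf2-/- array) and 17.8 (Ebf2+/- array), and 7 probe sets lie under the array's own floor on both arrays.

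The feedback inhibitors were compared first. Spry1 encodes a Sprouty protein, an inhibitor of the Ras-ERK cascade downstream of receptor tyrosine kinases. Its only probe set (1415874_at) read 385 on the Ebf2-/- array and 79.5 on the Ebf2+/- array, a log2 ratio of 2.27. Both signals stood well above their floors. Of the 11176 genes with a ratio, 78 had a higher one. The ratio of Spry1 lay between 1.75 and 2.30 under the 10 processing alternatives, past 2-fold in each. Its only probe set was well above both floors, so only the scalings and the pseudocount could change its ratio. Alternatives to the probe set rule or the floor left it at 2.27 by construction.

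Spry4, another Sprouty inhibitor, was seen on the Ebf2-/- array only. Its brightest probe set (1440867_at) read 50.1 on the Ebf2-/- array and 14.0 on the Ebf2+/- array, where it was under the floor. The other 3 probe sets of Spry4 were under the floor on both arrays. They read 19.1, 12.1 and 0.692 on the Ebf2-/- array, against 8.57, 6.64 and 2.67 on the Ebf2+/- array. The higher signal of Spry4 therefore rests on 1 dim probe set, and with a pseudocount of 50 its log2 ratio was 0.65, under 2-fold.

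Spry2, which shares the Sprouty domain with Spry1 and Spry4, had 180.4 on the Ebf2-/- array and 104 on the Ebf2+/- array, 1.73-fold higher in Ebf2-/- cells. Its other probe set was under both floors, at 11.1 on the Ebf2-/- and 12.1 on the Ebf2+/- array. Dusp6 had the opposite direction to the Sprouty genes. Its only probe set read 96.8 on the Ebf2-/- array and 170.5 on the Ebf2+/- array, 1.76-fold lower in Ebf2-/- cells. The log2 ratio of Dusp6 ranged from -0.99 to -0.59 over the alternatives and did not reach 2-fold under any of them. By the brightest probe set, the 3 Sprouty genes thus had the higher signal, and Dusp6 the lower signal, on the Ebf2-/- array. For Spry4, above the floor on that array only, a ratio above 0 followed from the floors. The probe sets of Spry4 and Spry2 under the floor on both arrays did not share a direction.

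RefSeq promoter windows (GRCm38.p6), from 250 bases before to 50 bases after the annotated start, were found for 8 of the 10 members, with 9 windows in all because Fgfr3 has 2 starts. Each was searched on both strands for CCCNNGGG, the core of the site that EBF proteins bind, for CCGGAA, a core bound by ERK-responsive ETS factors, for the AP-1 site TGANTCA and for the EGR site GCGNGGGCG. Of 32851 such windows in the table, 13.7% held the EBF core, 14.9% the ETS core, 7.81% the AP-1 site and 5.55% the EGR site. Among the 8 members with a window 1 had the EBF core and 1 the ETS core, which was Spry2 in both cases. The EGR site was found in 2 (Fgfr3 and Fgf2) and the AP-1 site in 0. Fgfr1 and Spry4 had no window and were not searched. The windows of Spry1 and Spry2 are printed to set the member with the highest ratio beside the only one of the 8 with an EBF core. Capitals mark motif matches, and these letters are a description of the window and not a measured binding site.
Spry1 (chr3:37639697-37639996, plus strand): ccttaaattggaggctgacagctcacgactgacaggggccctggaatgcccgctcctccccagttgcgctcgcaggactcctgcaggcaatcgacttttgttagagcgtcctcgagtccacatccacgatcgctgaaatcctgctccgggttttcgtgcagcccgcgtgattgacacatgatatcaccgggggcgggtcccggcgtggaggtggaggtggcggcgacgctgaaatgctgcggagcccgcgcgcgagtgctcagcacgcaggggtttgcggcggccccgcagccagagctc
Spry2 (chr14:105896770-105897069, minus strand): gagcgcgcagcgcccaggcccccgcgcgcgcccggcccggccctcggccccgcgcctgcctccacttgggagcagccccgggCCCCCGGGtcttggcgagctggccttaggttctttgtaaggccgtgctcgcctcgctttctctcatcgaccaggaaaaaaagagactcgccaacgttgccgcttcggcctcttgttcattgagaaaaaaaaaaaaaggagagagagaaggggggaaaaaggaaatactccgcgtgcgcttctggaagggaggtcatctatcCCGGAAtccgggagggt
In Spry2 the EBF core starts at base -168 and the ETS core at base 34, counted from the annotated start. The window of Spry1 holds none of the 4 motifs.

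The receptors differed among themselves. Fgfr3, the receptor tyrosine kinase that restrains chondrocyte proliferation, read 30.02 on the Ebf2-/- array and 119 on the Ebf2+/- array by its brighter probe set (1421841_at). This gave a log2 ratio of -1.98, and 62 of the 11176 genes with a ratio had a lower one. The Ebf2-/- signal stood only just above the floor of 23.8. The other probe set of Fgfr3 (1425796_a_at) was under the floor on both arrays, at 17.2 on the Ebf2-/- and 2.22 on the Ebf2+/- array. Averaging it in without a floor turned the log2 ratio of Fgfr3 to 0.49, while each of the other 9 alternatives kept it at least 2-fold lower. Among these, the other probe set rules, the array median as floor and no floor gave the same ratio of -1.98.

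Most chondrocyte markers had the same direction as Fgfr3 on these 2 arrays. On a list of 16 with 12 measured, 7 were lower by 2-fold or more in Ebf2-/- cells and 0 higher by as much, and the summed signal of all 16 was 5645 on the Ebf2-/- array and 15526 on the Ebf2+/- array. The median log2 ratio of the 11 with a ratio was -1.72. Col2a1, the main collagen of cartilage, read 2592 on the Ebf2-/- and 8542 on the Ebf2+/- array. Chad, Col10a1, Matn1 and Matn3 were under the floor on both arrays. The part of these cells in the difference of Fgfr3 was not tested, and in such bulk RNA fewer cells of a type and less RNA per cell cannot be told apart.

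Fgfr2, which in the mouse promotes osteoblast differentiation and growth, had the lower signal on the Ebf2-/- array by both probe sets above the floor. The brighter (1433489_s_at) read 619 on the Ebf2-/- and 1169 on the Ebf2+/- array, 1.89-fold lower in Ebf2-/- cells. The other (1420847_a_at) read 195 on the Ebf2-/- and 466 on the Ebf2+/- array, 2.39-fold lower. These values lie on either side of 2-fold, and their difference of 0.34 in log2 ratio is smaller than the pooled SD of 0.44 between probe sets. The last probe set (1443211_at) was under the array's own floor on both arrays, at 22.1 on the Ebf2-/- and 13.8 on the Ebf2+/- array.

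The probe sets of Fgfr1, a receptor active in osteoblasts and their progenitors, gave different answers. The brightest (1424050_s_at) read 498 on the Ebf2-/- array and 506 on the Ebf2+/- array, a log2 ratio of -0.02. Another (1425911_a_at) read 347 on the Ebf2-/- and 162 on the Ebf2+/- array, 2.14-fold higher in Ebf2-/- cells. The dimmest (1436551_at) read 34.4 on the Ebf2-/- and 25.0 on the Ebf2+/- array, a log2 ratio of 0.46. The ratios spanned 1.12 on the log2 scale, from -0.02 to 1.10, so no direction is given for Fgfr1. The suffixes _s_at and _a_at mark probe sets that match more than 1 transcript, and which Fgfr1 transcripts each matches was not analysed here.

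Of the printed windows, that of the annotated Fgfr3 start with the lower coordinate is shown because Fgfr3 had the lowest ratio of the members. Its capitals mark the EGR site, which starts at base -63. The window of the other Fgfr3 start and that of Fgfr2 hold none of the 4 motifs.
Fgfr3 (chr5:33721474-33721773, plus strand): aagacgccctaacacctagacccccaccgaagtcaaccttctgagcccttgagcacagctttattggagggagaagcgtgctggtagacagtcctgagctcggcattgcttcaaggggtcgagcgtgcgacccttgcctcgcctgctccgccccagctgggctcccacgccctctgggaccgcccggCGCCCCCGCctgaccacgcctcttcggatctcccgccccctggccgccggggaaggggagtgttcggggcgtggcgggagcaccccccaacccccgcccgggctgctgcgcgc

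**Figure D2:**
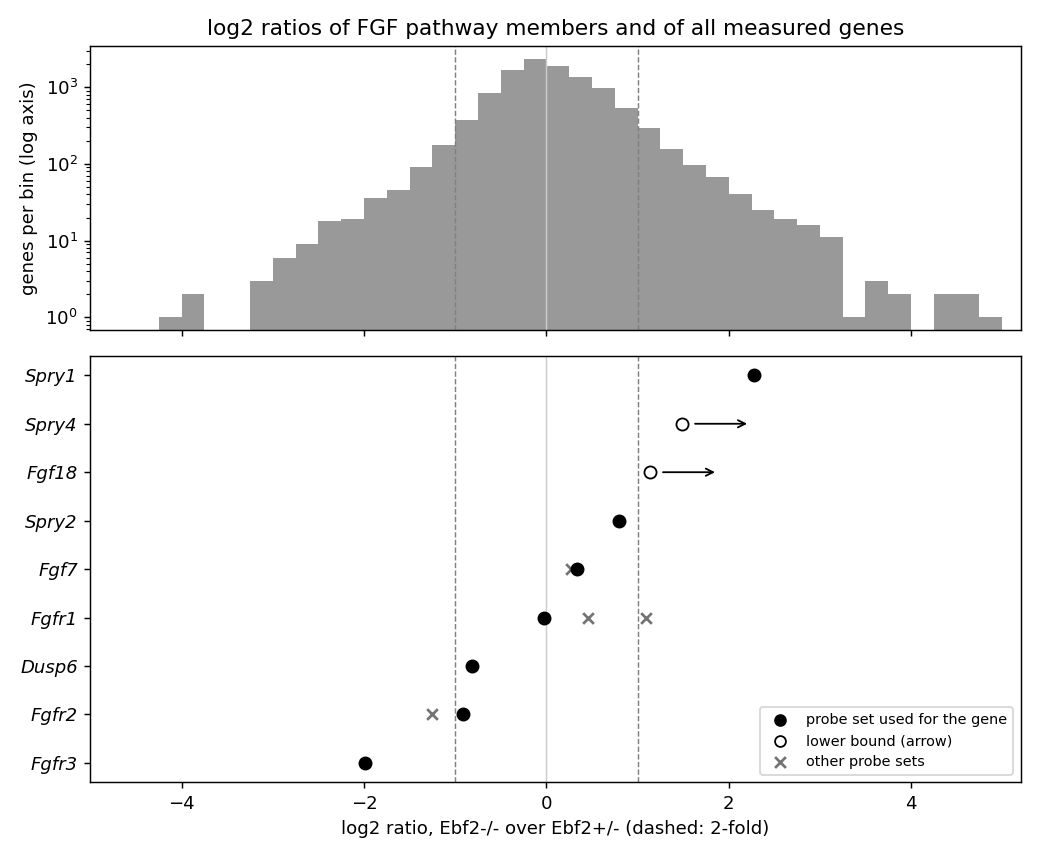
Upper part, number of measured genes per bin of log2 ratio (Ebf2-/- over Ebf2+/-, log axis for the count). Lower part, the log2 ratio of the 9 measured members, from 2.27 for Spry1 to -1.98 for Fgfr3, with open circles for lower bounds, crosses for other probe sets and dashed lines at 2-fold.

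Among the ligands, Fgf7 (keratinocyte growth factor), which mesenchymal cells secrete and which acts on an epithelial splice form of Fgfr2, was well above the floor on both arrays. Its probe sets read 1703 and 965 on the Ebf2-/- array, against 1349.8 and 797 on the Ebf2+/- array. The folds were 1.26 and 1.21, close to each other and under 2-fold. Fgf18, a ligand that acts on chondrocytes and osteoblasts in the mouse skeleton, read 39.2 on the Ebf2-/- array and 1.75 on the Ebf2+/- array. The Ebf2+/- signal was under the floor, so Fgf18 was at least 2.20-fold higher. That bound was under 2-fold after lowess scaling (log2 ratio 0.77), after spike-in scaling (0.96), with a higher floor (0.999) and with a pseudocount of 50 (0.79). Fgf18 and Fgfr3, a ligand and a receptor of the growth plate, had opposite directions on these arrays. Fgf2, a mitogen for many mesenchymal cells, was under both floors, at 9.06 on the Ebf2-/- array and 16.3 on the Ebf2+/- array, and no ratio is given for it.

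The rest of the pathway was described from lists by role. Of 62 other FGF pathway genes 55 had a probe set with their symbol alone, 37 were measured and 36 had a ratio. Past 2-fold, 7 were higher and 2 lower in Ebf2-/- cells, against the 6.30% and 3.46% of all measured genes given above. The median log2 ratio of the 36 was 0.41. Frs3 among the higher and Fgf5 among the lower were above the floor on 1 array only. The docking protein Frs2 was among the 7 genes not analysed here.

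Fgfrl1, which encodes an FGF receptor without a kinase domain, read 1096 on the Ebf2-/- array and 483 on the Ebf2+/- array, 2.27-fold higher, and its other probe set had a log2 ratio of 1.19. Klb, a co-receptor for endocrine FGFs, was dim, at 30.06 on the Ebf2-/- and 2.94 on the Ebf2+/- array (at least 1.69-fold higher). Fgfr4 and Kl were under the floor on both arrays.

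Of 19 other FGF ligands 4 were measured. Fgf5, best known in the mouse as a regulator of hair growth, was above the floor on the Ebf2+/- array only, at 17.9 on the Ebf2-/- and 107 on the Ebf2+/- array, at least 4.47-fold lower in Ebf2-/- cells. Its other probe set was under both floors. Fgf13, an intracellular FGF homologue that binds sodium channels, read 40.2 on the Ebf2-/- and 19.5 on the Ebf2+/- array, 2.07-fold higher, but under 2-fold after each of the 3 other scalings and with a pseudocount of 50. Fgf9, a ligand with a role in skeletal growth, read 50.04 on the Ebf2-/- and 32.4 on the Ebf2+/- array.

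The other ERK feedback inhibitors had ratios above 0 in 8 of 8 measured genes, with a median log2 ratio of 0.55. The median over all measured genes with a ratio was -0.01. Several of the 8 were dim, where the floor itself was higher on the Ebf2-/- array (23.8 against 17.8). Dusp4 read 31.6 on the Ebf2-/- and 21.8 on the Ebf2+/- array, and Dusp9 read 26.1 and 14.5. Dusp9 was above the floor on the Ebf2-/- array only, so its ratio could only lie above 0. A gene above only the Ebf2+/- floor, with a signal under 23.8, would have had no ratio. The count of 8 was thus fixed in part by the floors. Of the 8 genes 1 passed 2-fold. That gene, Spred3, a Sprouty-related inhibitor, was dim, at 41.4 on the Ebf2-/- and 18.9 on the Ebf2+/- array, and was under 2-fold after lowess and spike-in scaling and with a pseudocount of 50. Its relatives Spred1 (302 on the Ebf2-/- and 235 on the Ebf2+/- array) and Spred2 (324 on the Ebf2-/- and 316 on the Ebf2+/- array) differed by less than 2-fold. For Spred1 the probe sets ran from -0.25 to 0.78 in log2 ratio and so did not share a direction. Il17rd, which encodes the membrane protein Sef, an FGF signalling inhibitor, read 113 on the Ebf2-/- and 58.7 on the Ebf2+/- array, 1.93-fold higher.

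ERK-responsive genes were split. The immediate early transcription factors Egr1 (3943 on the Ebf2-/- and 1809 on the Ebf2+/- array) and Fos (6119 on the Ebf2-/- and 2846 on the Ebf2+/- array) were 2.18-fold and 2.15-fold higher, and both were just under 2-fold after spike-in scaling. Fosl1, the AP-1 subunit Fra-1, read 25.3 on the Ebf2-/- and 117 on the Ebf2+/- array by its brighter probe set, 4.63-fold lower, but its other probe set had a log2 ratio of 0.51. Ccnd1, cyclin D1, read 1782 on the Ebf2-/- and 3401 on the Ebf2+/- array, with log2 ratios from -0.93 to -0.13 over its 3 probe sets. The transcription factor Etv5 read 135 on the Ebf2-/- and 182 on the Ebf2+/- array, with probe sets from -0.82 to 0.22 in log2 ratio. Etv4 was above the floor on the Ebf2+/- array only (2.63 on the Ebf2-/- and 21.8 on the Ebf2+/- array) and had no ratio. Of the 8 measured genes of the list, the 7 with a ratio had a median log2 ratio of -0.24, with 3 ratios above and 4 below 0.

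Among all measured genes most differed by less than 2-fold, with 6.30% higher and 3.46% lower by as much. The same held for genes that relay the signal inside the cell, 13 of 15 measured. The exceptions were Shc1, an adaptor that links receptor tyrosine kinases to Ras, and Frs3, a docking protein for FGF receptors. Shc1 read 533 on the Ebf2-/- array and 170.2 on the Ebf2+/- array, 3.14-fold higher, and its other probe set had a log2 ratio of 2.05. Frs3 read 39.2 on the Ebf2-/- and 12.9 on the Ebf2+/- array, at least 2.20-fold higher, a bound that missed 2-fold in 4 of 9 alternatives. Ptpn11, the phosphatase Shp2, read 1149 on the Ebf2-/- and 1076 on the Ebf2+/- array, and the kinases Map2k1 (632 on the Ebf2-/- and 730.1 on the Ebf2+/- array) and Map2k2 (474 on the Ebf2-/- and 387 on the Ebf2+/- array) were likewise within 2-fold.

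**Figure D3:**
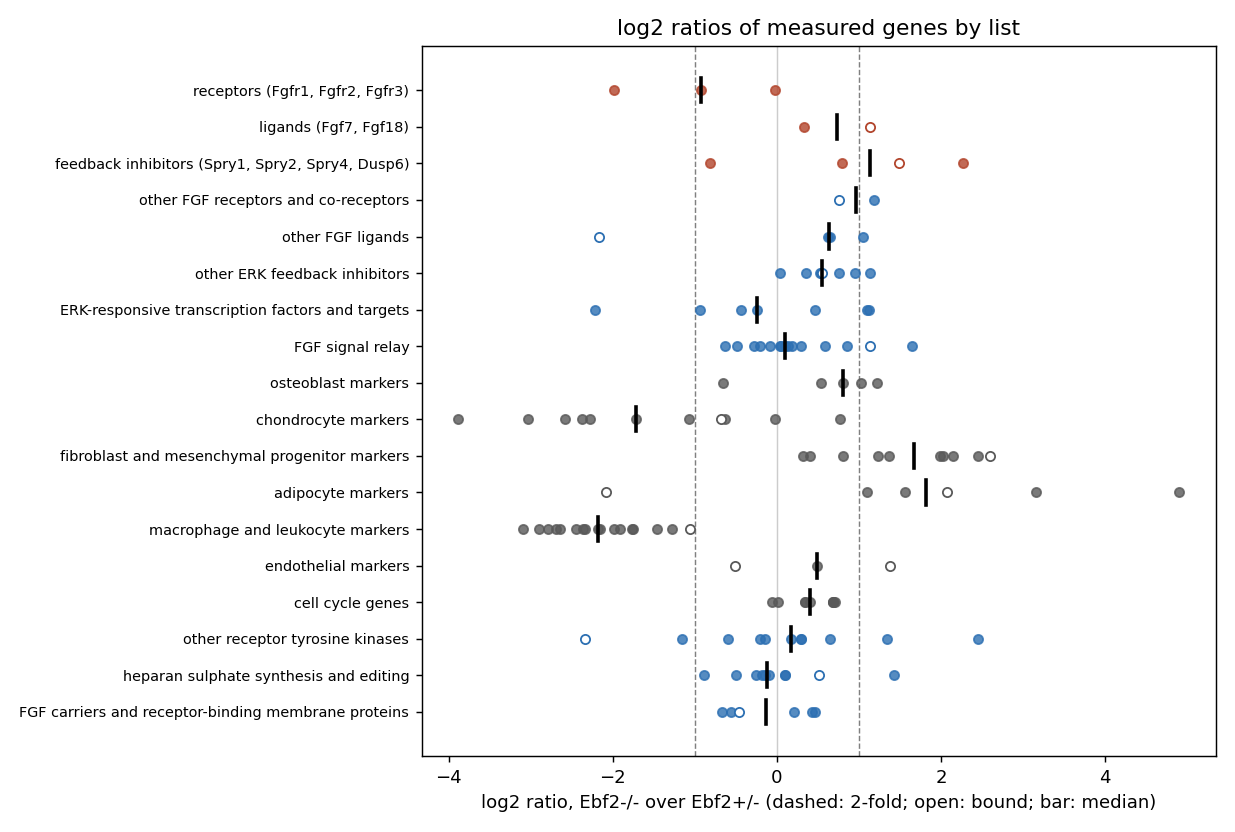
log2 ratio (Ebf2-/- over Ebf2+/-) of each measured gene with a ratio, 1 row for each list, with open points for bounds, a bar at the median and dashed lines at 2-fold. The Sprouty genes and Dusp6 lie on opposite sides of 0, and macrophage and leukocyte markers lie wholly under -1. Spry4, above the floor on the Ebf2-/- array only, could only lie above 0.

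Markers of other cell types differed between the arrays as well. Past 2-fold, 7 of 10 measured fibroblast and mesenchymal progenitor markers were higher in Ebf2-/- cells and 0 lower, with a summed signal of 16371 on the Ebf2-/- and 6349 on the Ebf2+/- array. Of 17 measured macrophage and leukocyte markers 17 were lower by 2-fold or more, with a summed signal of 2266 on the Ebf2-/- and 9791 on the Ebf2+/- array, and Itgam was under the floor on both arrays. Among 6 measured adipocyte markers 5 were higher and 1 lower by 2-fold or more, with a summed signal of 2898 on the Ebf2-/- and 819 on the Ebf2+/- array. Of 9 measured cell cycle genes 0 passed 2-fold, with a median log2 ratio of 0.41. Endothelial markers were mostly under the floor, on both arrays in 5 of 8 cases. The part of these cells in the values of the Sprouty genes, Shc1 or Fgfrl1 was not tested.

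**Figure D4:**
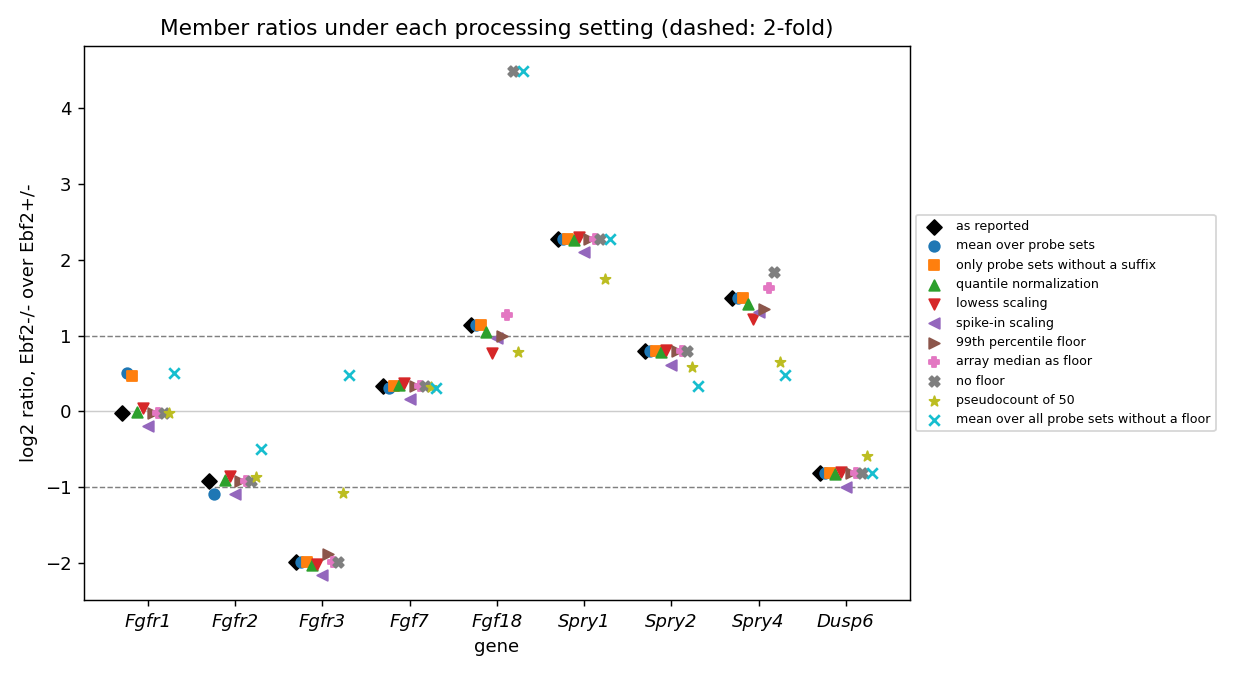
log2 ratio (Ebf2-/- over Ebf2+/-) of the 9 measured members as reported (black diamonds) and under each of 10 processing alternatives, with dashed lines at 2-fold. Spry1 stays between 1.75 and 2.30, while Fgfr3 turns to 0.49 where a probe set under the floor is averaged in.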

How the data were processed

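The deposited values are the authors' MAS5 intensity for each of 45101 probe sets on 2 Affymetrix arrays, 1 per genotype. Per the submitters' processing notes the tool was MAS5. The sources used here give no version of it, and its detection calls were not used. Without the lowest and highest 2% of values the mean intensity was 100.001 on each array, so the authors had scaled both to 1 target. Gene symbols came from the platform annotation, and 932 probe sets with several symbols and 9211 with none listed were left out.

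The floor was the 95th percentile of 86 olfactory, vomeronasal and taste receptor probe sets on each array. Where a gene had several probe sets, the brightest by mean log2 signal over the arrays stood for it. A signal above the floor on 1 array only gave no fold in 609 genes, where it was not above the higher of the floors. With 1 array per genotype the number of arrays limits the precision, no test was run, and counts use a size of 2-fold. The procedure was tested on simulated data in which only genes above the floor on both arrays were changed. That simulation covered neither bounds taken from the floor nor variation between animals. Every member is named with every probe set. Of other lists the text names measured genes past 2-fold and the 3 with the highest mean signal. A few other genes, such as Dusp4, Dusp9, Etv4 and Etv5, are named beyond that rule. The rule also covers the 3 brightest of each marker list, but apart from osteoblast markers these lists are given by counts with few genes named. The members and lists were chosen with earlier results of these data known. The 18 spike-in probe sets averaged 0.18 ± 0.15 in log2 ratio (SD). Alternatives changed the probe set rule, the scaling (quantile, lowess, spike-in) and the floor. Python 3.11.15, numpy 2.4.6, pandas 2.3.3 and statsmodels 0.14.6 were used.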

Additional observations from a re-analysis of the deposited data

How the results depend on the processing

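Of 134 values recomputed over 10 alternatives, 116 stayed within the spread between probe sets (ratios) or within 1.5 times (counts). Some of these values could not change, as with another probe set rule for a gene with 1 probe set. With a pseudocount of 50, 1 member was at least 2-fold higher, and the log2 ratios were 1.75 for Spry1, 0.65 for Spry4 and -1.08 for Fgfr3. That pseudocount left 280 genes higher and 134 lower among all measured genes, and 4 other FGF pathway genes higher. With spike-in scaling 2 members were lower and 2 other pathway genes higher, and with lowess scaling 4 other pathway genes were higher. With the mean over probe sets that have a ratio 2 members were lower (Fgfr2 passed 2-fold), 1 other pathway gene was lower, and Fgfr1 had 0.51. With only probe sets that carry no suffix Fgfr1 had 0.46, and Fgfr2 had no value because its probe set left was under the floor. Without a floor Fgf18 had 4.49, computed from a signal under the floor, and 997 genes were higher and 932 lower. An alternative added after seeing the data, the mean over all probe sets without a floor, gave 0.49 for Fgfr3, which reversed its direction, 0.51 for Fgfr1, 4.49 for Fgf18, 0.33 for Spry2 and 0.48 for Spry4. By its construction it takes in probe sets under the floor on both arrays, and 1329 genes were then higher and 1168 lower. Of the 9 other pathway genes past 2-fold, 3 (Fgfrl1, Fgf5 and Shc1) stayed past it in each of the other 9 alternatives that gave a value. No paired analysis was possible because each genotype has 1 array. Signals near the floor limit Spry4, Fgf18, Fgf2 and Fgfr3 most.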

Other observations

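Further lists around FGF signalling were drawn up after the files had been opened. Their counts stand beside 6.30% higher and 3.46% lower by 2-fold or more among all measured genes. Of 11 measured receptor tyrosine kinases outside the FGF family 2 were higher and 2 lower by 2-fold or more in Ebf2-/- cells, with a median log2 ratio of 0.18. The platelet-derived growth factor receptor Pdgfra read 860.2 on the Ebf2-/- and 158 on the Ebf2+/- array, 5.45-fold higher, with probe sets from 0.58 to 2.45 in log2 ratio, and Erbb2 114 on the Ebf2-/- and 45.2 on the Ebf2+/- array, 2.53-fold higher. Erbb3, a receptor of the same family that has a role in Schwann cells, was at least 5.04-fold lower (18.04 on the Ebf2-/- and 120.0 on the Ebf2+/- array). The collagen receptor Ddr1 was 2.23-fold lower by its brightest probe set, but its log2 ratio was -0.05 when its probe sets were averaged and -0.12 from those that carry no suffix. The brightest of the list by mean signal were Ddr2, Pdgfrb and Axl. The collagen receptor Ddr2 read 1246 on the Ebf2-/- and 1103 on the Ebf2+/- array, with probe sets from 0.18 to 1.77 in log2 ratio. Pdgfrb, which marks mesenchymal and mural cells, read 1100.3 on the Ebf2-/- and 900.1 on the Ebf2+/- array, and Axl, a receptor for Gas6, read 544 on the Ebf2-/- and 819 on the Ebf2+/- array.

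Heparan sulphate, the co-receptor chain for FGFs, was covered by 10 measured genes of its synthesis and editing, of which 1 passed 2-fold upwards and 0 downwards (median log2 ratio -0.12). Hs6st1, a sulphotransferase that adds 6-O-sulphate, read 140.1 on the Ebf2-/- and 52.2 on the Ebf2+/- array, 2.68-fold higher, and under 2-fold (0.89) once a pseudocount of 50 was added. Its relative Hs6st2 had the other direction, at 1297 on the Ebf2-/- and 2397 on the Ebf2+/- array, and its probe sets ran from -1.38 to -0.06 in log2 ratio. The sulphatases Sulf1 and Sulf2, which remove 6-O-sulphate, read 1037 and 1810.5 on the Ebf2-/- array and 1466 and 2151 on the Ebf2+/- array. Of 6 measured FGF carriers and receptor-binding membrane proteins 0 passed 2-fold. Flrt2, a membrane protein of a family that binds FGF receptors, read 647 on the Ebf2-/- and 954 on the Ebf2+/- array. N-cadherin, Cdh2, read 698 on the Ebf2-/- and 603 on the Ebf2+/- array, with probe sets from -0.05 to 0.21 in log2 ratio. The adhesion molecule Ncam1 read 273 on the Ebf2-/- and 435 on the Ebf2+/- array, and its probe sets ran from -1.16 to 0.32.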
